A study of Mus musculus with 90 samples.

Results

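The genes described here carry a leukocyte CD antigen symbol, Cd followed by digits and optional letters, on an array of RAW 264.7 cells, a mouse macrophage line. Probes were taken where their annotation named a single such gene, leaving out Cd14, Cd36, Cd40, Cd74, Cd80, Cd86 and Cd274. Of 84 probes to 56 genes with such a symbol, 66 probes to 51 genes had values in at least 2 of 3 sets of every condition and were tested. They stood among 11600 features, 9760 of them named genes. Cells received LPS (lipopolysaccharide at 100 ng/ml, together with 100 pM lipid binding protein), IFG (interferon gamma, 5 nM), 2MA (2-methyl-thio-ATP, an agonist of nucleotide receptors, 500 µM), LPS+IFG or LPS+2MA, each for 1, 2 or 4 h. The labels of LPS+IFG and LPS+2MA give the same doses and no lipid binding protein. Every treated RNA shared an array with RNA of untreated cells cultured in media for the same time. A condition had 3 numbered sets with both dye orientations in each, so that 5 treatments at 3 times gave 45 replicates and 90 arrays. The labels do not say whether sets came from separate cultures or whether treatments shared untreated RNA. The spread behind every p-value is that between sets, which may be technical.

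CD numbers label molecules of the leukocyte surface by the antibodies that bind them, so the genes share a place in the cell and not a pathway. They include receptors that tune activation, tetraspanins that organise other membrane proteins, parts of the T and B cell antigen receptors, and regulators of complement. In macrophages, LPS acts through Toll-like receptor 4 and NF-kB, and interferon gamma through its own surface receptor. Activation by either is known to change which surface receptors the cells display to lymphocytes.

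By role, 16 of the 51 genes were activation or myeloid antigens (Cd33, Cd47, Cd48, Cd52, Cd68, Cd83, Cd84, Cd93, Cd163, Cd180, Cd200, Cd209b, Cd209f, Cd244a, Cd300lg and Cd302) and 6 were tetraspanins (Cd9, Cd37, Cd63, Cd81, Cd82 and Cd151). Not all of the 16 are receptors, as Cd52 is a glycoprotein and Cd68 a lysosomal marker. T and NK cell antigens made up 14 (Cd2, Cd3d, Cd3e, Cd3g, Cd4, Cd5, Cd6, Cd7, Cd8a, Cd27, Cd28, Cd96, Cd160 and Cd247) and B cell antigens 4 (Cd22, Cd72, Cd79a and Cd79b). The list of complement regulators held 3 (Cd46, Cd55 and Cd59a), and 3 were sialomucins or other glycoproteins (Cd99, Cd164 and Cd177). Cd2ap, an adaptor inside the cell, and the secreted Cd5l share the symbol pattern without being such antigens, and Cd40lg, Cd55b and Cd70 completed the set. Cd24a, Cd34, Cd44, Cd53 and Cd209g had too few values to test.

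Values are log2 ratios of treated over untreated RNA, so 1 is a 2-fold difference, and a set's value is the mean of both dye orientations. The direction of the ratio is not stated, and Cy5 over Cy3 was taken as likely because, at 2 h, 7 of 7 genes known to rise with LPS (median 3.36) and 5 of 5 measured genes known to rise with interferon gamma (median 3.67) then lay above 0. A gene was called at an adjusted p under 0.05 over all features in limma together with a change of at least 2-fold. Exact zeros, treated as missing, made up 0.758% of the values of the 66 probes and 7.84 to 17.0% of all values on an array. Precision is limited by how many arrays there were. The files hold ratios, so a gene near 0 may be absent or unchanged, and macrophage identity could not be read from levels. Of the macrophage marker list 5 of 10 genes were tested. Of these 2 rose and 1 fell with LPS+IFG at 4 h, where 6.71% of all features were called. Then 0 of 6 T cell and 0 of 4 B cell markers tested were called. For dendritic, NK and fibroblast markers it was 0 of 3 each. At that share, counts of 0 in lists this short do not tell absent genes from unchanged ones.

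Most of these antigens moved little, and 6 genes carried every call against control. Cd83, a marker of mature dendritic cells and activated lymphocytes, was higher in 14 of 15 conditions, and Cd22, an inhibitory receptor of B cells, in the 9 that contained LPS. The signal inhibiting phagocytosis, Cd47, and the GPI-anchored glycoprotein Cd52 rose late. So did Cd180, a Toll-like receptor homologue also known as RP105. Cd72, another inhibitory B cell receptor, was called lower in LPS+IFG at 4 h. A further 19 genes passed the adjusted p in at least 1 condition without reaching 2-fold, with means of -0.72 to 0.87. The remaining 26 passed in none, and their condition means ran from -0.28 to 0.33. Over all features, 9.78% were called against control in at least 1 of the 15 conditions and 48.3% passed by adjusted p.

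**Figure D1:**
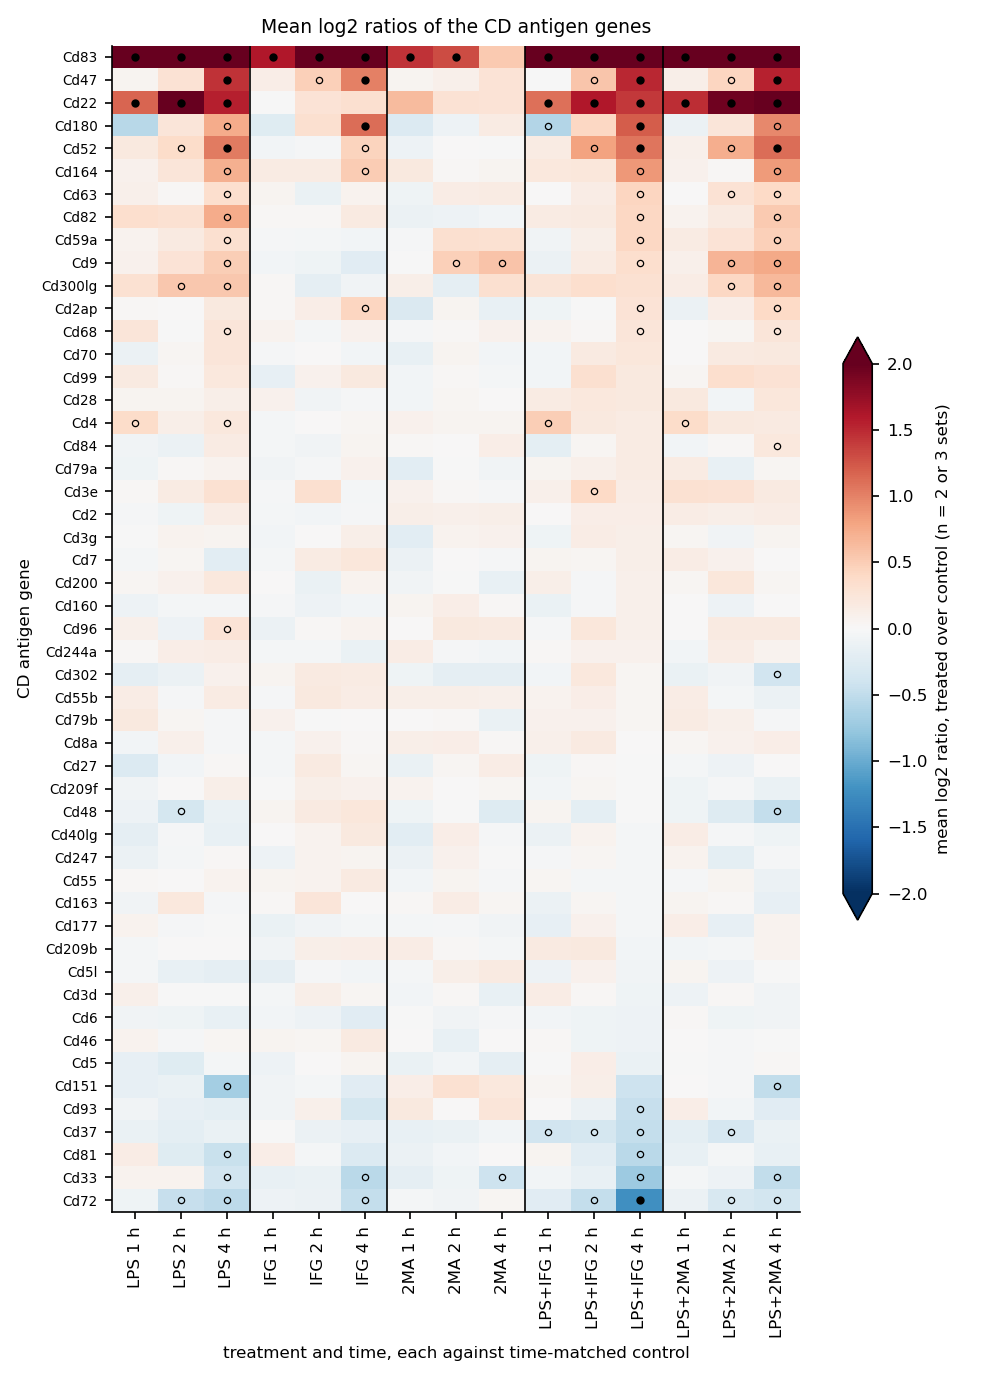
Mean log2 ratio, treated over untreated, of the 51 CD antigen genes (rows, ordered by LPS+IFG at 4 h) in 15 conditions (columns), with the colour scale ending at -2 and 2. Filled dots mark genes called by adjusted p and 2-fold, and open dots those by adjusted p alone. The calls lie in 6 rows, Cd83, Cd47, Cd22, Cd180 and Cd52 above and Cd72 at the foot.

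At 1 h, 2 of the 51 genes were called in LPS, Cd83 and Cd22, both higher, where 1.08% of all features were called in either direction. In IFG and 2MA 1 was called, Cd83, against 0.379% and 0.328% of all features. In LPS+IFG and LPS+2MA the calls were Cd83 and Cd22, 2 genes each, against 1.84% and 1.22%. The calls at 2 h fell on the same pair, with 2 genes in LPS (background 2.21%), 1 in IFG (1.08%), 1 in 2MA (0.328%), 2 in LPS+IFG (3.74%) and 2 in LPS+2MA (2.78%). At 4 h, 4 genes rose with LPS (background 4.81%), 3 with IFG (1.86%), 0 with 2MA (0.147%) and 4 with LPS+2MA (6.59%). With LPS+IFG 5 rose and 1 fell (6.71%). The counts stand for 3.92% of the genes in LPS at 1 h and 11.8% in LPS+IFG at 4 h, and a single gene is 1.96% of 51.

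By adjusted p alone the share of CD antigen genes lay near the background in most conditions. At 1 h 3 genes passed in LPS (against 5.4% of all features), 1 in IFG (1.07%), 1 in 2MA (1.27%), 5 in LPS+IFG (7.26%) and 3 in LPS+2MA (5.36%). At 2 h the counts were 6 in LPS (15.4%), 2 in IFG (3.28%), 2 in 2MA (1.23%), 7 in LPS+IFG (20.3%) and 9 in LPS+2MA (17.2%). At 4 h 18 genes passed in LPS (35.3%, against 28% of all features), 8 in IFG (15.7% against 11.8%), 17 in LPS+IFG (33.3% against 33.4%) and 19 in LPS+2MA (37.3% against 32.8%). In 2MA at 4 h limma called 0 genes. There 7 had an unadjusted p under 0.05, a limit at which all features were not counted. By adjusted p 2 passed, 3.92% against 1.84%, and these were Cd9 at 0.57 and Cd33 at -0.41. The median log2 ratio at 4 h was 0.08 for the CD antigen genes and 0.0025 for all features in LPS, and 0.10 and -0.0088 in LPS+IFG.

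**Figure D2:**
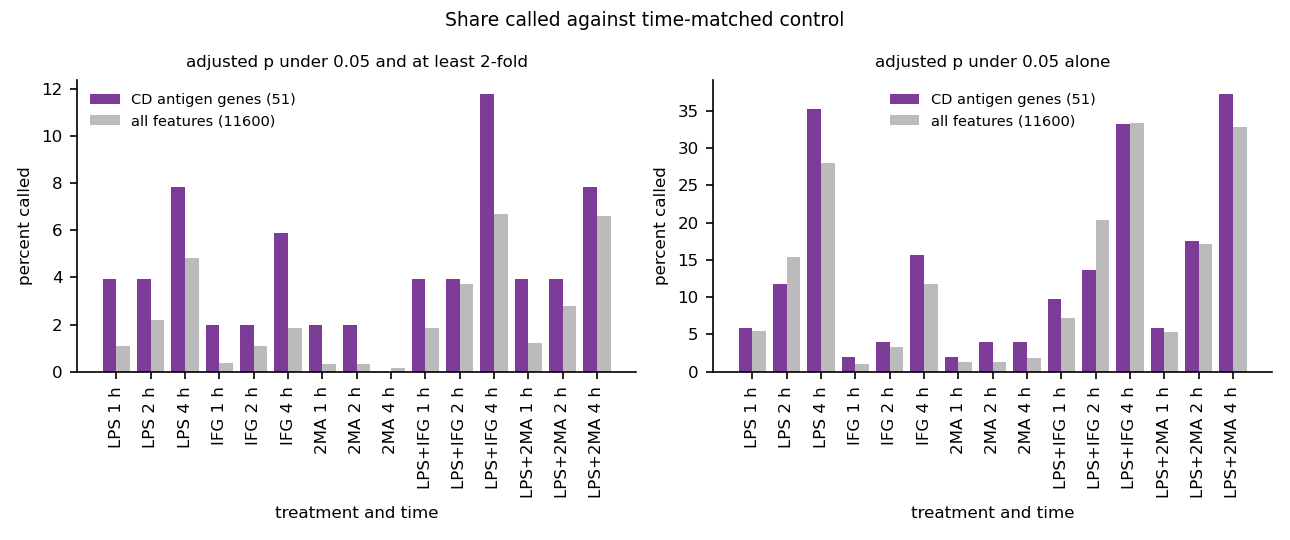
Percent of the 51 CD antigen genes (purple) and of all 11600 features (grey) called in each condition, by adjusted p with 2-fold (left) and by adjusted p alone (right). Purple bars move in steps of 1.96%, 1 gene, and in LPS+IFG at 4 h reach 11.8% on the left and 33.3% on the right, beside grey bars of 6.71% and 33.4%.

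Cd83 had the highest ratios of all these genes, already at 1 h, with means of 3.41 in LPS, 1.60 in IFG, 1.45 in 2MA, 4.25 in LPS+IFG and 4.10 in LPS+2MA. Its mean was highest at 2 h in every treatment but 2MA, where 1 h was highest. At 2 h the LPS sets stood at 4.37, 3.87 and 3.40 on the log2 scale. The IFG sets stood at 2.14, 2.17 and 2.48. In 2MA they were 1.98, 0.94 and 1.01, the first well above the others, although every array of the 6 lay above 0. The LPS+IFG sets were 4.94, 4.34 and 4.46, and the LPS+2MA sets 4.73, 4.21 and 4.20. The IFG and 2MA sets lay below every set that had received LPS, and the LPS sets overlapped those of both combinations. Relative to untreated cells these means were 14.7-fold in LPS, 4.79-fold in IFG, 2.48-fold in 2MA, 23.9-fold in LPS+IFG and 20.8-fold in LPS+2MA. Adjusted p was 6.65e-18 in LPS, 2.96e-11 in IFG, 4.88e-05 in 2MA, 3.98e-20 in LPS+IFG and 3.68e-19 in LPS+2MA. The call in 2MA at 2 h was lost without replicate 1, with a mean of 0.97 and an adjusted p of 0.0543, and with arrays scaled to equal spread, with an adjusted p of 0.0516.

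By 4 h Cd83 separated the combinations from LPS alone. Its log2 ratios were 4.03, 3.59 and 3.78 in LPS+IFG and 3.81, 3.93 and 3.98 in LPS+2MA, against 2.89, 2.66 and 2.52 in LPS. No set of either combination reached down to the LPS sets. The IFG sets at 4 h were 1.89, 2.10 and 2.32, and the 2MA sets 0.99, -0.01 and 0.57, whose mean of 0.52 was the single Cd83 value that did not pass (adjusted p = 0.229). LPS+IFG exceeded LPS by 1.11 ± 0.27 (SE, adjusted p = 0.0109) and LPS+2MA exceeded LPS by 1.22 ± 0.27 (SE, adjusted p = 0.0384). Cd83 was the single CD antigen gene called in each of these differences at 4 h, where 1.03% and 0.112% of all features were called, and none was called at 1 h (0.655% and 0.069% of features) or 2 h (0.94% and 0.0259%). At an unadjusted p under 0.05 in limma there were 1 and 5 genes for LPS+IFG at 1 and 2 h, and 2 and 4 for LPS+2MA. The share of all features at that limit was not counted, and 0 of the 51 genes passed by adjusted p. At the earlier times the differences of Cd83 from LPS were 0.85 and 0.70 for LPS+IFG and 0.70 and 0.50 for LPS+2MA, none passing, with adjusted p of 0.294, 0.264, 1.00 and 1.00.

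Lipid binding protein is in the labels of LPS and not of the combinations, so these differences cannot be told apart from it. Both 4 h differences of Cd83 were sensitive to single sets. The LPS+IFG difference was 1.02 without LPS replicate 3 (adjusted p = 0.0601) and 1.00 without LPS+IFG replicate 1 (adjusted p = 0.0819), and the LPS+2MA difference lost its call without any 1 of the 6 sets, at 1.13 to 1.32. LPS minus IFG was 1.81 at 1 h and 1.62 at 2 h (adjusted p = 1.86e-05 and 6.20e-05), and 0.59 at 4 h, which did not pass (adjusted p = 0.228). A second probe to Cd83, too sparse to be tested, had a mean of 3.48 with LPS at 1 h, beside 3.41 at the tested probe.

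Cd180 moved in both directions over time. At 1 h its log2 ratios were -0.96, -0.53 and -0.19 in LPS and -0.88, -0.64 and -0.25 in LPS+IFG, below 0 in every set, and the second passed by adjusted p alone (0.0304, against 0.0561 in LPS). At 4 h the sets stood at 0.88, 0.75 and 0.58 in LPS, 1.45, 1.34 and 0.55 in IFG, 0.07, 0.11 and 0.30 in 2MA, 1.14, 1.57 and 0.93 in LPS+IFG and 1.05, 1.00 and 0.83 in LPS+2MA. All sets were then above 0, those of 2MA lowest, and set 3 of IFG lay apart below its fellows. The gene was called in IFG, at 2.16-fold (adjusted p = 1.05e-05), and in LPS+IFG, at 2.32-fold (adjusted p = 5.56e-07). Its LPS+2MA mean of 0.96 fell just under 2-fold (adjusted p = 3.00e-05), and LPS, at 0.74, passed by adjusted p alone (0.00116). Without IFG replicate 1 the IFG mean was 0.94, under 2-fold. With treated RNA in Cy5 alone the 4 h means were also under 2-fold, at 0.91 in IFG and 0.95 in LPS+IFG, against 1.32 and 1.48 with it in Cy3. A second Cd180 probe, too sparse to be tested, had a value in set 2 alone of LPS+IFG at 4 h, 0.23 beside 1.57 at the tested probe, and in set 3 alone of LPS+IFG at 1 h, 0.20 beside -0.25. The probes disagreed there, and the second had no value in LPS or IFG at 4 h. It was close to the tested probe in set 3 of LPS at 1 h, -0.13 beside -0.19. The same held in set 3 of LPS+IFG at 2 h, 0.31 beside 0.26, but not in set 2, -0.09 beside 0.69. At 2 h means of the tested probe ran from -0.10 in 2MA to 0.42 in LPS+IFG and none passed.

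Cd47, which marks cells as self through the phagocyte receptor Sirpa, barely moved at 1 h, with means of -0.0036 to 0.13 over the 5 treatments. At 2 h it passed by adjusted p alone in IFG (0.48), LPS+IFG (0.56) and LPS+2MA (0.43), and stood at 0.29 in LPS and 0.10 in 2MA. Its log2 ratios at 4 h were 1.62, 1.66 and 1.04 in LPS, 1.04, 1.23 and 0.76 in IFG, 0.47, 0.58 and -0.21 in 2MA, 1.70, 1.63 and 1.20 in LPS+IFG and 1.71, 1.72 and 1.22 in LPS+2MA. Set 3 was the lowest of its condition in 5 of 5 treatments at 4 h, and in 2MA it was below 0. Cd47 was called at 4 h in LPS (2.71-fold, adjusted p = 2.14e-12), IFG (2.01-fold, 3.77e-08), LPS+IFG (2.84-fold, 4.18e-13) and LPS+2MA (2.92-fold, 2.19e-13), while 2MA did not pass (adjusted p = 0.336). Without IFG replicate 1 or 2 the IFG mean was 0.99 or 0.90 and no longer 2-fold. All 3 probes to Cd47 averaged above 0 in each treatment at 4 h. In IFG the probe means were 0.81, 0.96 and 1.26, the lower ones under 2-fold. Sirpa itself, from a list of partners of these antigens, fell to -1.21 ± 0.21 in LPS+IFG at 4 h (SD, n = 3).

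Cd52, the small glycoprotein known as CAMPATH-1 antigen, followed a like course, with 1 h means of -0.10 to 0.20. At 2 h it stood at 0.36 in LPS, 0.81 in LPS+IFG and 0.72 in LPS+2MA, each passing by adjusted p alone, and at -0.03 in IFG and 0.02 in 2MA. At 4 h the log2 ratios were 1.03, 1.30 and 0.77 in LPS, 0.47, 0.72 and 0.15 in IFG, 0.04, 0.17 and -0.25 in 2MA, 0.91, 1.30 and 0.99 in LPS+IFG and 1.15, 1.25 and 0.93 in LPS+2MA. No set with LPS overlapped a set with IFG alone or with 2MA alone. Cd52 was called in LPS (2.05-fold, adjusted p = 9.32e-09), LPS+IFG (2.10-fold, 2.80e-09) and LPS+2MA (2.16-fold, 1.28e-09), and LPS exceeded IFG by 0.59 ± 0.17 (SE, adjusted p = 0.0212), less than 2-fold. By adjusted p alone 4 CD antigen genes differed there, 7.84% against 9.53% of all features. Each of these calls lay close to the 2-fold limit. Without LPS replicate 2 the LPS mean was 0.90 and without LPS+IFG replicate 2 the LPS+IFG mean was 0.95.

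**Figure D3:**
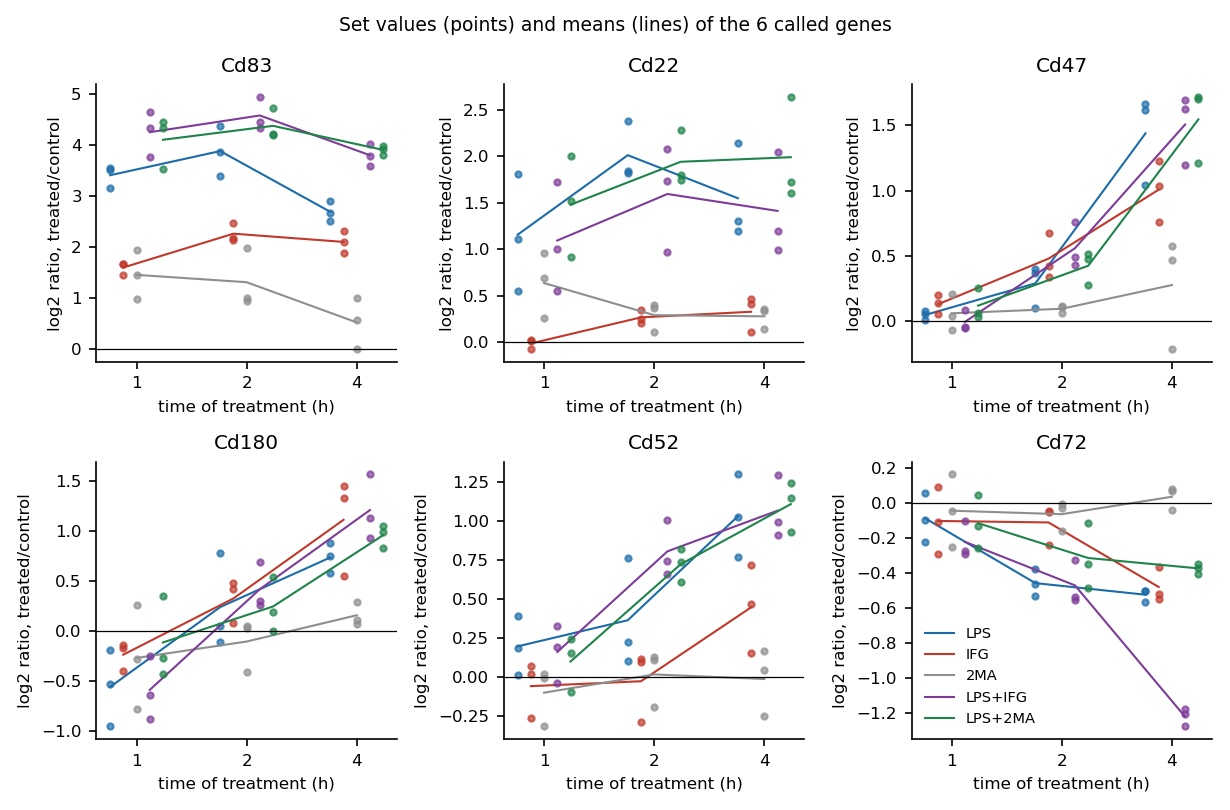
Log2 ratios, treated over untreated (vertical axes, each gene with its own range), of the 6 called genes at 1, 2 and 4 h. Points are single sets, lines join means of 3 sets, and colours mark the treatments. With LPS, alone or combined, Cd83 is far above 0 from 1 h on and Cd47, Cd180 and Cd52 are higher on average at 4 h than at 1 h, and the LPS+IFG sets of Cd72 at 4 h, -1.18 to -1.28, lie apart below all others.

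Set against their own ratios at 1 h, those at 4 h differed for 2 CD antigen genes in LPS, 1 in IFG and 3 in LPS+IFG, where 3.68%, 1.25% and 4.77% of all features were called. Cd180 was called in each of the 3, Cd47 in LPS and LPS+IFG, and Cd72 in LPS+IFG.

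Among B cell antigens, Cd72 fell and Cd22 rose, while Cd79a and Cd79b, the signalling chains of the B cell receptor, passed in none of 15 conditions. Cd72, which binds the semaphorin Sema4d and restrains B cell receptor signals, had 1 h means of -0.09 in LPS, -0.10 in IFG, -0.04 in 2MA, -0.22 in LPS+IFG and -0.11 in LPS+2MA, none passing. At 2 h it was -0.46 in LPS, -0.11 in IFG, -0.06 in 2MA, -0.47 in LPS+IFG and -0.31 in LPS+2MA. At 4 h the sets stood at -0.50, -0.50 and -0.56 in LPS, -0.55, -0.37 and -0.52 in IFG, -0.04, 0.07 and 0.08 in 2MA, -1.18, -1.28 and -1.21 in LPS+IFG and -0.40, -0.37 and -0.35 in LPS+2MA. The LPS+IFG sets lay well below all others, and the 2MA sets lay around 0. Cd72 was thus 0.429-fold of control in LPS+IFG (adjusted p = 1.09e-15), the single called decrease among the 51 genes, and passed by adjusted p alone in LPS (1.16e-06), IFG (1.59e-05) and LPS+2MA (0.000181). LPS+IFG was lower than LPS by a log2 difference of -0.70 ± 0.11 (SE, adjusted p = 3.89e-05), less than 2-fold. By adjusted p alone 2 CD antigen genes differed there, Cd72 and Cd83, 3.92% against 3.86% of all features. Both Cd72 probes fell in LPS+IFG at 4 h, to -1.32 and -1.12.

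Cd22, a sialic acid-binding receptor (Siglec-2), stood apart because it was called with LPS at every time and never in IFG or 2MA alone. Means at 1 h were 1.16 in LPS, -0.01 in IFG, 0.64 in 2MA, 1.09 in LPS+IFG and 1.48 in LPS+2MA. The 2MA sets at 1 h, 0.96, 0.69 and 0.26, overlapped those of LPS (0.55, 1.11 and 1.81) and of both combinations. At 2 h, its highest in LPS, the log2 ratios were 1.84, 1.82 and 2.38 in LPS, 0.21, 0.25 and 0.35 in IFG, 0.40, 0.37 and 0.11 in 2MA, 1.74, 0.97 and 2.08 in LPS+IFG and 1.80, 1.74 and 2.28 in LPS+2MA. All sets with LPS at 2 h lay above all sets without it at that time. The 2 h means were 4.04-fold in LPS (adjusted p = 1.00e-08), 3.02-fold in LPS+IFG (7.06e-07) and 3.84-fold in LPS+2MA (1.70e-08). At 4 h the means were 1.55, 0.33, 0.28, 1.41 and 1.99 for LPS, IFG, 2MA, LPS+IFG and LPS+2MA. LPS exceeded IFG by 1.17 at 1 h, 1.75 at 2 h and 1.22 at 4 h (adjusted p = 0.0376, 0.000201 and 0.00871). In LPS minus IFG, 2 CD antigen genes (Cd22 and Cd83) were called at 1 h, 2 at 2 h (the same pair) and 1 at 4 h (Cd22), against 1.22%, 2.29% and 2.72% of all features.

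The Cd22 values rested on 1 probe and differed with the dye. Ratios with treated RNA in Cy5 exceeded those with it in Cy3 by 0.72 to 2.05 over the 15 conditions, where the gap of Cd83 ran from -0.49 to 0.01. In LPS at 2 h the means were 2.38 in Cy5 and 1.65 in Cy3, and in LPS+IFG at 1 h 2.12 and 0.07. A second Cd22 probe, too sparse to be tested, stood at -0.48, -0.22 and 0.14 in LPS at 2 h and at -0.17, -0.36 and 0.14 in LPS at 4 h, so the probes disagreed. At 1 h the second probe stood at 0.20, 0.30 and 0.09 in LPS, below every set of the tested probe there, and which probe follows Cd22 RNA was not tested. Set 3 was the highest of its condition in 9 of 9 conditions with LPS, and without it the 1 h means were 0.83 in LPS and 0.78 in LPS+IFG, neither passing (adjusted p = 0.0732 and 0.0795). The LPS minus IFG call at 1 h was also lost without LPS replicate 2, LPS replicate 3 or any IFG replicate (0.84 to 1.19), and that at 4 h without LPS replicate 3 (0.92) or IFG replicate 2 (1.12).

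**Figure D4:**
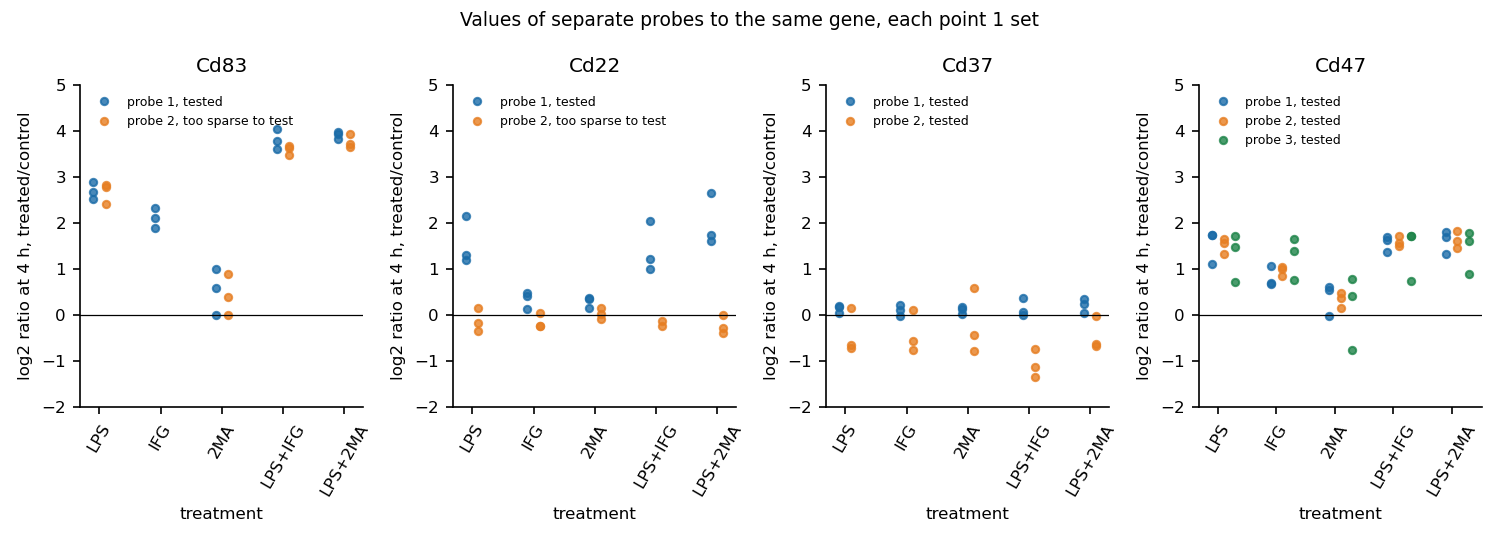
Log2 ratios at 4 h, treated over untreated, of separate probes to Cd83, Cd22, Cd37 and Cd47, 1 point per set and 1 colour per probe. The probes of Cd47 and of Cd83 overlap in most treatments, whereas those of Cd22 part with LPS and those of Cd37 part in LPS+IFG, at 0.14 and -1.08 on average.

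The stretch before the start site is shown for 3 of these genes, for Cd180 and Cd47, which rose with both LPS and IFG by 4 h, and for Cd72, which fell. The sequences are the 250 bases upstream of a start in RefSeq (GRCm38.p6), at chr13:102693297-102693546 on the plus strand for Cd180, chr16:49855404-49855653 on the plus strand for Cd47 and chr4:43454627-43454876 on the minus strand for Cd72. Cd180 and Cd47 had 2 starts each in that table and the first was taken. For Cd47 and Cd72 the start lies inside the span annotated to the gene. They run 5′ to 3′, and capitals mark the match to the PU.1 core.
Cd180: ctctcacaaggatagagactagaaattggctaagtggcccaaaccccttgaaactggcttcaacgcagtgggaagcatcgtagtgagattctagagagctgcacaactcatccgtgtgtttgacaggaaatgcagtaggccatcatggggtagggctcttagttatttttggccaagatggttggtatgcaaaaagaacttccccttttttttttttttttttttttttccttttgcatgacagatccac
Cd47: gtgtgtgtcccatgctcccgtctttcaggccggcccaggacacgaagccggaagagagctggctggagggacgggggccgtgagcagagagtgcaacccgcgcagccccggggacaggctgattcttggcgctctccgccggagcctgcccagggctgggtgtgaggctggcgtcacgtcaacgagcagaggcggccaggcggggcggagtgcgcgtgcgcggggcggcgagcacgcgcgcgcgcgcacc
Cd72: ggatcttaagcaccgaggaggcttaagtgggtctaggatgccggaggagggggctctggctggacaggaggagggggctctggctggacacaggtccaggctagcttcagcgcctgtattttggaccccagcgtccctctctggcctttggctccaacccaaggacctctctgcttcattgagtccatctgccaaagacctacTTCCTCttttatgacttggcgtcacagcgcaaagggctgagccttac
The motifs searched on both strands were GGG and TTCC with any 3 bases between for NF-kB, a repeat of GAAA with any 2 bases between for the interferon-stimulated response element and GAGGAA for PU.1, a factor of myeloid and B cells. The single match in these 3 stretches and in that of Cd22 was the PU.1 core of Cd72, on the minus strand, 47 bases before the start. Of the 38 CD antigen genes with a stretch in the table, 3 held the NF-kB letters (7.89%), 1 the response element (2.63%) and 15 those of PU.1 (39.5%). Of all 32851 stretches, 4.65%, 2.98% and 23.3% held them. A match is a description of letters and no evidence of binding.

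Tetraspanins, which gather receptors and integrins into membrane domains, moved by less than 2-fold, and each of the 6 passed by adjusted p in at least 1 condition, where 48.3% of all features did. At 4 h 3 rose and 2 fell in LPS by adjusted p, beside 28% of all features passing, and 3 rose and 2 fell in LPS+IFG, beside 33.4%. In IFG 0 of 6 passed, beside 11.8%, and the difference in counts between treatments was not tested. Cd82, also known as a suppressor of metastasis, had log2 ratios of 0.86, 0.46 and 0.90 in LPS at 4 h (adjusted p = 1.37e-06), all above 0. Cd81, a partner in the B cell co-receptor, had -0.77, -0.72 and -0.10 in LPS+IFG (adjusted p = 0.000244), with set 3 near 0, and Cd151, an integrin partner, had -0.59, -0.55 and -0.87 in LPS (adjusted p = 0.00212). Cd9, named after its values were seen, was the one that passed in 2MA, with 1.05, 0.14 and 0.53 at 4 h (adjusted p = 0.00951), and it stood at 0.49 in LPS and -0.23 in IFG. LPS exceeded IFG by 0.72 ± 0.18 in Cd9 and 0.56 ± 0.16 in Cd82 at 4 h (SE, adjusted p = 0.00598 and 0.0157).

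Cd37, a leukocyte tetraspanin, averaged -0.54, -0.68 and -0.19 in LPS+IFG at 4 h (adjusted p = 9.65e-05), but its probes parted. One had -1.13, -1.35 and -0.75 there, and the other 0.05, -0.0049 and 0.37, so no set of the first overlapped the second.

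Among the remaining myeloid receptors and glycoproteins, Cd164 rose and Cd33 fell by less than 2-fold. Cd164, a sialomucin of adhesion known as endolyn, had log2 ratios at 4 h of 0.77, 0.90 and 0.45 in LPS, 0.31, 0.62 and 0.61 in IFG, and 1.05, 0.94 and 0.61 in LPS+IFG. All of these sets were above 0, and the means of 0.71, 0.51 and 0.87 passed (adjusted p = 7.45e-08, 6.98e-05 and 4.98e-10), while 2MA stood at 0.05. Cd33, a Siglec that dampens activation in human myeloid cells, had -0.37, -0.49 and -0.27 in LPS, -0.36, -0.64 and -0.60 in IFG, and -0.68, -0.83 and -0.66 in LPS+IFG. It was lower in every set, with means of -0.38, -0.53 and -0.72 (adjusted p = 0.00887, 0.000605 and 1.69e-06), and also passed in 2MA at -0.41 (adjusted p = 0.0436). Of the 16 activation and myeloid antigens, 4 were called in some condition (Cd47, Cd52, Cd83 and Cd180), where 9.78% of all features were. Another 7 passed by adjusted p alone, and 48.3% of all features passed by adjusted p, called ones included. The other 5 passed in none, among them the haemoglobin scavenger receptor Cd163 and the lectins Cd209b and Cd209f. The lysosomal macrophage marker Cd68 rose slightly, to 0.24 in LPS and 0.25 in LPS+IFG at 4 h (adjusted p = 0.0347 and 0.0260).

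Of the 14 T and NK cell antigens none was called in any condition, where 9.78% of all features were. By adjusted p alone 3 passed in at least 1 condition, Cd4, Cd3e and Cd96, beside 48.3% of all features. The means of the 14 over all conditions ran from -0.28 to 0.49. The highest was Cd4, the T helper co-receptor, in LPS+IFG at 1 h, at 0.58, 0.42 and 0.47 (adjusted p = 1.18e-05), and this came from 1 of its 2 tested probes, whose mean was 0.93 beside 0.05 at the other. Another Cd4 probe, too sparse to be tested, had a value in set 3 alone there, 0.28 beside 0.84 and 0.11. Cd3d, Cd3g and Cd247, chains of the T cell receptor complex, passed in none of 15 conditions. Among the 3 listed complement regulators, Cd59a, which blocks the membrane attack complex, passed by adjusted p alone. It did so at 4 h in LPS (0.32), LPS+IFG (0.41) and LPS+2MA (0.48). Cd46 and Cd55 did not pass in any condition, nor did Cd55b, which that list left out.

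Leukocyte antigens that carry other gene symbols gave the setting. Of 40 listed such genes 34 were tested, and at 4 h 5 rose in LPS (4.81% of all features called), 4 in IFG (1.86%), 1 in 2MA (0.147%), and 5 in LPS+2MA (6.59%), where 1 fell. In LPS+IFG 4 rose and 1 fell (6.71%), and the largest were the death receptor Fas at 3.96 ± 0.55, the urokinase receptor Plaur at 2.77 ± 0.51, the integrin chain Itgal at 2.47 ± 0.18 and the ectonucleotidase Entpd1 at 1.69 ± 0.09 (SD, n = 3 each). Their list median was 0.37 in LPS+IFG, beside 0.10 for the 51 genes. Of 17 tested partners of these antigens, 1 rose and 1 fell in LPS+IFG, the galectin Lgals9 at 2.11 ± 0.30 and Sirpa.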

How the data were processed

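Total RNA of RAW 264.7 cells was hybridised against time-matched untreated RNA on 90 custom Agilent oligonucleotide arrays, per the labels. The authors deposited 1 table of processed values, log2 ratios by their sign and range, with a ceiling at 100-fold. The median was 0 on every array with the exact zeros counted, so it does not show how the ratios were centred. Scanning, background correction and normalization are not given in the sources used here. Of 16281 probes, 13738 had 1 gene in the platform annotation, 52 several and 2491 none. Symbols were updated through RefSeq, where 99.6% of the gene IDs of probes with 1 gene were found.

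Exact zeros were set missing, the sign was turned where treated RNA was in Cy3, and the arrays of a dye-swapped pair were averaged. Pairs correlated below 0 before turning in 37 of 45 cases (-0.784 to 0.396). Probes with at least 2 of 3 sets in every condition were kept (13711) and averaged per gene (14 of the 51 CD antigen genes had several). The 45 replicates were fitted with 1 mean per condition in limma 3.58.1 in R 4.3.3 (lmFit and eBayes, two-sided, Benjamini-Hochberg over 11600 features, residual SD 0.199 at the median, 1.05% of replicate values missing). Of the CD antigen genes 12 lacked a set in some condition, and those fits used the other sets. Tables and figures were made with Python 3.11.15.

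Genes named with set values were those called against control, plus, at 4 h in LPS, IFG and LPS+IFG, the 4 with the largest mean by adjusted p alone. Cd4 and Cd9, also given by set, and all other named genes were chosen after their values were seen. The genes, role groups and lists were chosen with earlier results of these data known. Same-numbered LPS and combination sets deviated together (r above 0.1) in 18 of 18 cases (lowest r 0.119). Over all treatments this held in 86 of 90 cases. What same-numbered sets shared is not in the labels and was not tested. The main fit had no term for the set number. Alternatives were equal spread of arrays, complete values, zeros kept, a dye term, each dye alone, each probe alone, a block for set and each replicate left out.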

Additional observations from a re-analysis of the deposited data

Results flagged for a closer look

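Responses of 3 genes differed between 1 and 4 h of the same treatment, by the difference of the log2 ratios at 4 h and 1 h in limma. In LPS, IFG and LPS+IFG, 3.92%, 1.96% and 5.88% of the CD antigen genes were called. Of all features 3.68%, 1.25% and 4.77% were, so the shares lay near each other. The 2MA and LPS+2MA responses were not compared in this way. Cd180 was higher at 4 h by 1.30 in LPS (adjusted p = 0.000214), by 1.35 in IFG (0.000382) and by 1.80 in LPS+IFG (7.75e-07). Cd47 was higher at 4 h by 1.39 in LPS (adjusted p = 6.53e-08) and by 1.51 in LPS+IFG (1.16e-08). Cd72 had a difference of -1.001 in LPS+IFG (adjusted p = 8.51e-09), which missed 2-fold without LPS+IFG replicate 2 at either time (-0.94 and -0.97). The difference of Cd83 was -0.72 in LPS and did not pass (adjusted p = 0.0799).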

How the results depend on the processing

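Of the counts in 27 comparisons, all stayed within 1.5 times with complete values, with zeros kept, with a dye term and with a block for the replicate number. With that replicate block, which the shared deviation of same-numbered sets calls for, LPS+IFG at 4 h had 6 genes, and 0 of 46 named values changed their call. No alternative turned a direction, and 57 of 521 recomputed values of named genes lost their call. These used tested probes alone, so the sparse second probes of Cd22 and Cd180 were not among them. That of Cd22 disagreed with the tested probe in LPS, and that of Cd180 in some of the few sets it had. With arrays scaled to equal spread, the count was 1 in LPS+IFG at 1 h. There 222 of all 11600 features were called, beside 214 in the main fit. It was 0 in 2MA at 2 h (37 features beside 38) and 3 in LPS+IFG at 4 h (509 beside 778). In LPS+IFG minus LPS and LPS+2MA minus LPS at 4 h it was 0 (55 beside 120 and 3 beside 13). LPS minus IFG gave 1 at 2 h (314 beside 266) and 0 at 4 h (192 beside 316). Arrays with Cy3 on the treated RNA gave 1 in LPS (159 features beside 125) and in LPS+IFG (263 beside 214) at 1 h. They gave 1 in LPS+IFG at 2 h (558 beside 434) and in LPS minus IFG at 1 h (133 beside 142). LPS+IFG minus LPS and LPS+2MA minus LPS at 4 h gave 0 (117 beside 120 and 5 beside 13). Arrays with Cy5 on the treated RNA gave 2 in 2MA at 1 h (97 features beside 38) and 0 in LPS+2MA minus LPS at 4 h (5 beside 13). In LPS minus IFG they gave 1 at 1 h (134 beside 142) and 0 at 4 h (302 beside 316). Each probe on its own gave 2 genes in IFG, 4 h minus 1 h. The cause of these changes was not tested. Leaving out 1 replicate gave counts of 1 to 2 in LPS at 1 h, in LPS+IFG at 1 h, in LPS minus IFG at 1 h and in IFG, 4 h minus 1 h. It gave 0 to 1 in 2MA at 2 h, in LPS+IFG minus LPS at 4 h and in LPS minus IFG at 4 h, 1 to 3 in IFG at 4 h, and 0 to 0 in LPS+2MA minus LPS at 4 h. Ranges in the other comparisons stayed within 1.5 times, among them 3 to 4 in LPS at 4 h and 5 to 6 in LPS+IFG at 4 h. Signal over background is not in the table, so dim probes could not be told from bright ones.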

Other observations

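Cd44, the hyaluronan receptor of activated leukocytes, was outside the tests because its probe had values in too few sets. Where both arrays of a set had one, its log2 ratios at 4 h were 1.52 and 1.47 in LPS+IFG, 1.79 and 2.01 in LPS+2MA, and 1.24 in the single set of LPS. The single set of IFG at 4 h had 0.24, and no set of 2MA had a value then. No test was made of these values.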
